A study of Mus musculus with 2 samples.

Results

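The 10 genes Pax2, Pax8, Lhx1, Emx2, Gata3, Tfcp2l1, Grhl2, Elf3, Elf5 and Osr2 encode transcription factors of the nephron and ureteric lineages. They were taken by name, and all 10 were found among the 43346 Ensembl genes of the tables. Kidney RNA longer than 200 nt was profiled by total RNA-seq in mice of the strain B6NCrl on postnatal day 0. Each of the 2 libraries held both kidneys of 1 pup, and the labels put both pups in the same pregnancy, under 1 donor identifier, with no record of sex. There was 1 group, with no treatment and no altered allele, so no conditions could be compared, and 2 littermates leave out variation between litters. With 1 residual degree of freedom no p-value is given, and the error of each value is the spread between the pups. The libraries held 41584961 expected counts in pup 1 and 48823952 in pup 2, where an expected count is an estimated number of reads. Levels are TPM, a share of all transcripts adjusted for transcript length that lets genes be set beside each other.

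Pax2 and Pax8 are paired-box factors that specify the renal lineage and act in both the ureteric bud and the forming nephron. Lhx1, a LIM homeodomain factor, and Emx2, a homeodomain factor, are needed for the early urogenital epithelium, and Lhx1 also patterns young nephrons. Gata3 is a zinc finger factor of the nephric duct and collecting duct. Tfcp2l1 and Grhl2 belong to the grainyhead superfamily of epithelial factors, and Elf3 and Elf5 to the epithelial branch of the ETS family. Osr2 is a zinc finger factor related to odd-skipped and is expressed in mesenchyme. Whole kidneys were measured, so fewer cells of a type and less RNA per cell cannot be told apart.

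The labelled tissue was checked with 8 genes of kidney segments, all of which were detected at 1 TPM or more in both pups. They included the collecting duct water channel Aqp2 (547 and 638 TPM). The 10 factors together held 384 TPM in pup 1 and 363 TPM in pup 2. All 10 were detected in both pups, against 61.5% of 21474 protein-coding genes. Their median level was 27.2 TPM in pup 1 and 26.02 TPM in pup 2, where the median of the 14684 detected genes of any type was 16.2 and 15.4 TPM. Grhl2 and Elf5 lay below those medians and the other 8 factors above them in both pups.

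Pax8 and Gata3 led the set. Pax8 (ENSMUSG00000026976.11, chromosome 2, 24420560 to 24475599, minus strand) had 99.5 TPM in pup 1 and 92.2 TPM in pup 2, a mean of 95.8 ± 5.13 TPM (SD, n = 2). It ranked 1724 among detected genes, at or above 88.3% of them. Gata3 (ENSMUSG00000015619.10, chromosome 2, 9857078 to 9890034, minus strand) had 81.5 and 75.9 TPM, a mean of 78.7 ± 3.97 TPM. The pups' ranges of these leading factors did not overlap. Osr2 (ENSMUSG00000022330.4, chromosome 15, 35296098 to 35303305, plus strand) came next with 62.9 and 61.8 TPM, a mean of 62.3 ± 0.728 TPM.

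A middle group of 5 factors lay close together. Elf3 (ENSMUSG00000003051.9, chromosome 1, 135253575 to 135258568, minus strand) had 32.4 and 28.9 TPM. Tfcp2l1 (ENSMUSG00000026380.10, chromosome 1, 118627945 to 118685168, plus strand), which directs the balance of collecting duct cell types, had 31.8 and 28.3 TPM, and its range overlapped that of Elf3. Pax2 (ENSMUSG00000004231.11, chromosome 19, 44756045 to 44837871, plus strand) had 22.7 and 23.7 TPM. Lhx1 (ENSMUSG00000018698.11, chromosome 11, 84518284 to 84525535, minus strand) had 21.2 and 23.2 TPM, overlapping Pax2. Emx2 (ENSMUSG00000043969.4, chromosome 19, 59458372 to 59465357, plus strand) had 20.95 and 19.4 TPM, and its higher pup lay just below the lower pup of Lhx1.

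Grhl2 and Elf5 were the lowest. Grhl2 (ENSMUSG00000022286.11, chromosome 15, 37233036 to 37363569, plus strand), a regulator of epithelial junction genes, had 6.10 and 5.42 TPM, a mean of 5.76 ± 0.481 TPM. Elf5 (ENSMUSG00000027186.10, chromosome 2, 103411688 to 103450989, plus strand), a factor of the principal cells of the collecting duct, had 5.21 and 3.81 TPM, a mean of 4.51 ± 0.990 TPM. The means of the 10 factors spanned 21.2-fold. Of the 9 pairs of neighbours in this order, 7 had ranges that did not overlap, the exceptions being Elf3 with Tfcp2l1 and Pax2 with Lhx1.

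**Figure D1:**
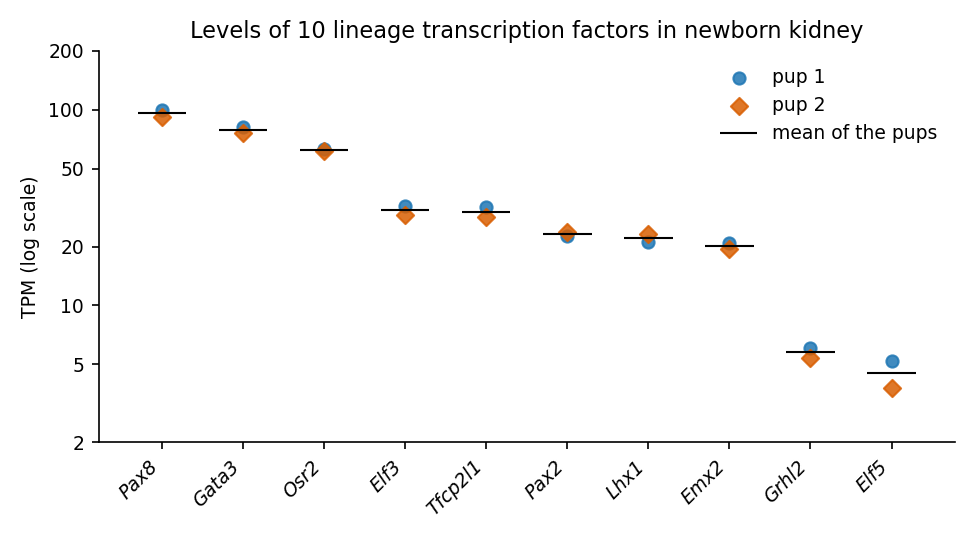
TPM of each factor (vertical axis, log scale) in pup 1 (circles) and pup 2 (diamonds), with the mean of the pups as a line. Pax8 leads with 99.5 and 92.2 TPM and Elf5 is lowest with 5.21 and 3.81 TPM; the pups lie far closer to each other than the ends of the order do.

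The factors were next set beside 33 paralogs of their families, of which 14 were detected and 8 had a TPM of 0 in both pups. Pax8 and Pax2 were the only Pax genes detected: 0 of the other 7 reached 1 TPM, and these summed to 0.0900 TPM in pup 1 and 0.350 TPM in pup 2. Pax8 stood 4.38 and 3.89 times as high as Pax2. Among 11 other LIM homeodomain genes only Lhx6 was detected, at 1.19 and 1.32 TPM, far under Lhx1. Lmx1b, a podocyte factor of that family, lay below the limit at 0.670 and 0.700 TPM.

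Emx2 was lower than its paralog. Emx1 had 30.0 and 32.1 TPM, which was 1.43 and 1.65 times the level of Emx2. On log2(TPM + 1), a scale that understates ratios of low genes, Emx2 differed from Emx1 by -0.60 ± 0.14 (SD, n = 2). In the other 9 pairs examined, Pax8 exceeded Pax2, Elf3 exceeded Elf5, and the factor exceeded its paralog, in both pups. Osr2 stood 9.29 and 7.66 times as high as Osr1, a factor of the earliest kidney mesoderm, which had 6.77 and 8.07 TPM. Gata3 stood 3.21 and 3.02 times as high as Gata2 (25.4 and 25.1 TPM). Gata6 (5.14 and 5.31 TPM) and Gata5 (1.57 and 1.54 TPM) were lower still. Gata1 and Gata4 were below 1 TPM.

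In the grainyhead superfamily Tfcp2l1 was the highest gene, at 1.63 and 1.57 times the broadly expressed Ubp1 (19.6 and 18.0 TPM) and 1.94 and 1.87 times Tfcp2 (16.4 and 15.2 TPM). Grhl2 was the highest of the Grhl genes, at 2.07 and 1.48 times Grhl3 (2.95 and 3.66 TPM) and 3.28 and 2.47 times Grhl1 (1.86 and 2.19 TPM). Among the ETS genes examined, the widely expressed Elf2 (48.9 and 44.0 TPM) exceeded Elf3. Elf3 stood 6.21 and 7.58 times as high as Elf5. Ehf, the third epithelial ETS gene, had 18.9 and 18.5 TPM, Elf1 had 15.6 and 15.04 TPM, and Elf4 had 1.85 and 1.88 TPM.

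**Figure D2:**
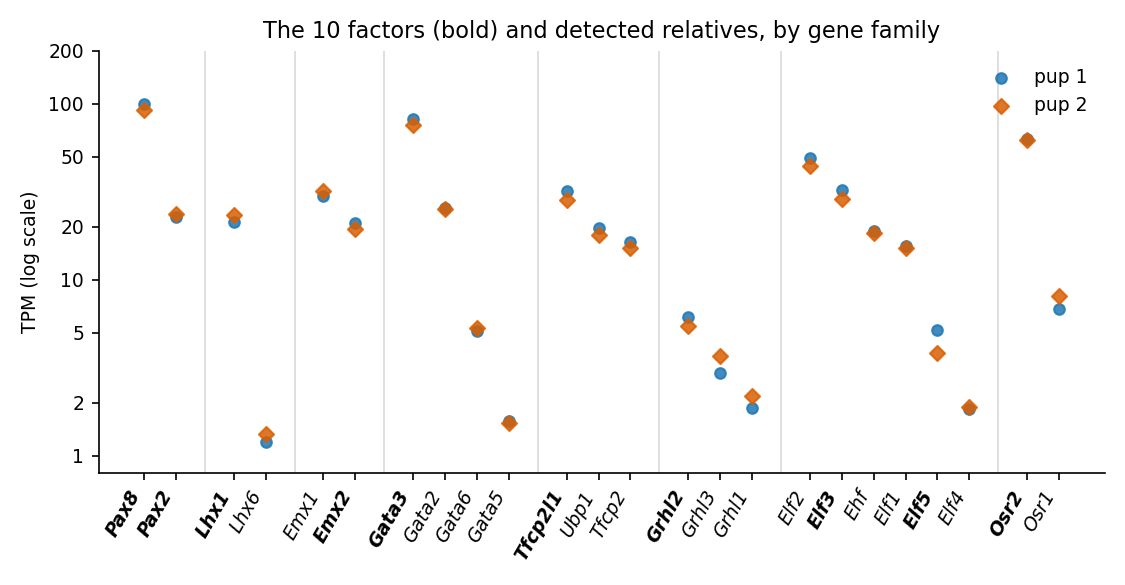
TPM (vertical axis, log scale) in pup 1 (circles) and pup 2 (diamonds) of the 10 factors, in bold, and the 14 detected paralogs, with families separated by grey lines. Emx1 lies above Emx2 and Elf2 above Elf3, while in the other families shown a factor of the set is the highest gene.

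The pups were compared on counts scaled to library size by edgeR's TMM factors, as log2 of CPM + 0.1, where CPM is a count relative to the library total. None of the 10 factors differed 2-fold, against 0.607% of 15161 genes tested, which had 50 or more expected counts in 1 pup or both. Lhx1, with 2308 and 3092 expected counts, had the widest difference of the set, a log2 ratio of pup 2 over pup 1 of 0.22 (95% counting interval 0.14 to 0.29). Pax2 was next at 0.17 (0.09 to 0.25). Tfcp2l1, with the most counts of the set (8433 and 9057), had -0.10 (-0.15 to -0.06), and Gata3 had -0.06 (-0.11 to -0.02). The intervals of the other 6 factors held 0. They cover counting error alone, not variation between animals, and the share of all genes whose interval leaves out 0 is not given. In size, the differences of Lhx1, Pax2, Tfcp2l1 and Gata3 exceeded those of 80.3%, 72.1%, 51.5% and 34.1% of all genes tested. The median absolute log2 difference was 0.06 over the 10 factors and 0.10 over all genes tested, whose 95th percentile was 0.44.

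**Figure D3:**
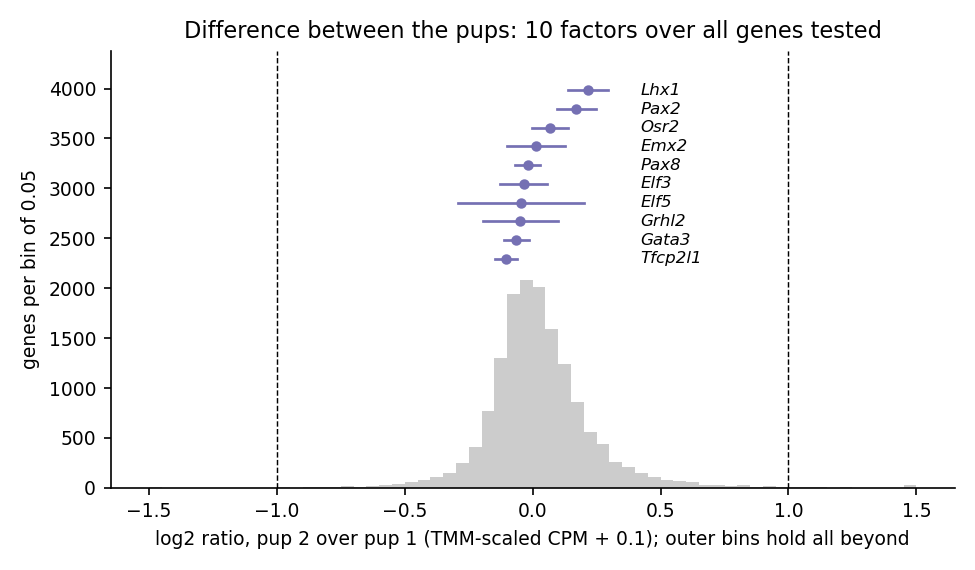
Log2 ratio of pup 2 over pup 1 (horizontal axis, TMM-scaled CPM + 0.1) for 15161 genes, as a histogram of genes per bin (vertical axis), with each factor above it as a point with its 95% counting interval. Dashed lines mark 2-fold; all 10 factors lie between -0.10 and 0.22, and Elf5, with the fewest counts, has the widest interval.

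On the deposited TPM the signs of Emx2 and Osr2 were the opposite of those on counts, and the median of all genes tested lay 0.09 lower in log2 than on counts. Elf5 differed most between the scales, with a log2 ratio of -0.44 on TPM and -0.05 on counts. Its expected counts were 264 and 295. In pup 1 a short transcript, Elf5-203 (658 nt), was assigned 22.1 counts, which made up 25.5% of the gene's TPM, and in pup 2 it was assigned 0. The deposited bounds of the estimate for Elf5-203 ran from 0.000498 to 2.06 TPM in pup 1 and up to 0.811 TPM in pup 2, so they overlapped. The main transcript, Elf5-201, had 3.61 and 3.57 TPM.

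Several of the factors are also known from other cell types, whose markers were read in the same libraries. Urothelium, which lines the renal pelvis and expresses Gata3, Elf3 and Grhl2, had 6 of 7 markers detected, with summed levels of 150.3 TPM in pup 1 and 203 TPM in pup 2. All 7 were higher in pup 2 on scaled counts, with a median log2 ratio of 0.52. Trp63 was the exception on TPM (1.03 and 1.00). Only 1 of them, the basal keratin Krt5, differed 2-fold, with a log2 ratio of 1.92. Krt5 was also the marker not detected, with 0.63 TPM (39 expected counts) in pup 1 and 2.41 TPM in pup 2. Gata3, Elf3 and Grhl2 had log2 ratios of -0.06, -0.04 and -0.05, and the paralog Grhl3 had 0.40. The part of urothelium in these levels was not tested. Mesangial and pericyte markers, of cells that also express Gata3, were detected for 5 of 5 genes, with sums of 493 and 489 TPM. Most of each sum was Ren1 (381 and 386 TPM). Stromal markers, of the mesenchyme in which Osr2 is known, were detected for 5 of 5, with sums of 893 and 787 TPM. Most of these came from Tcf21 (365 and 335 TPM) and Col1a1 (364 and 282 TPM). The sums therefore do not gauge how much of each cell type was present.

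Markers of other tissues were mostly below 1 TPM, with 5 detected. Of the markers of T cells and innate lymphoid cells, in which Gata3 is essential, 1 of 5 was detected, Rora (9.11 and 7.73 TPM), with list sums of 9.47 and 7.92 TPM. The T cell receptor component Cd3e had 0.05 and 0.06 TPM. Of the thyroid markers, in which Pax8 is essential, 1 of 4 was detected, Tshr, with sums of 1.68 and 1.37 TPM and Nkx2-1 at 0 in both pups. Among markers of Wolffian and Mullerian derivatives outside the kidney, which express Pax2, Lhx1 and Emx2, 1 of 4 was detected. That gene was Crisp1, with 5.09 and 9.72 TPM and a log2 ratio of 1.01. Lcn5 was at 0 in both pups, and the list summed to 6.28 and 10.9 TPM. Whether these genes mark ureteric cells within the kidney was not tested. Adrenal and gonad markers were detected for 0 of 4 genes, with sums of 1.55 and 1.5 TPM. Those of gut and lung epithelium were detected for 2 of 4 genes, with sums of 18.0 and 17.9 TPM, and Cdx2 was at 0. They were Vil1, also a protein of the proximal tubule brush border, with 14.8 and 13.6 TPM, and Krt20 with 2.93 and 4.00 TPM. The log2 ratio of Krt20 was 0.53, and which cells gave its reads was not tested. Vil1 and Rora stood above Grhl2 and Elf5 in both pups.

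The transcript tables divided the 10 genes among 42 transcripts. In each gene with 2 or more transcripts, 9 in all, the leading transcript held over 50% of the gene's TPM in both pups, as it did in 74.8% of 9642 detected protein-coding genes with more than 1 transcript. Tfcp2l1-201 held 97.4% and 95.4%, Lhx1-201 held 97.3% and 96.2%, and Gata3-201 held 85.4% and 81.9%. Pax8-201 held 78.6% and 80.2%, with 10.8% and 11.9% in Pax8-207. Osr2 had 1 transcript, Osr2-201. Elf5-201 held 69.2% and 93.6%. Transcripts that start at the upstream first exon of Elf5 held only 3.07% and 4.99% of its TPM.

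The remaining genes were split more evenly. Grhl2-201 held 55.8% and 59.95% of the TPM of Grhl2, and Grhl2-205, a transcript with no annotated coding sequence that starts inside the gene, held 31.4% and 29.0%. Coding transcripts thus made up 68.5% and 71.0% of Grhl2, where the median over the 9642 genes was 95.03% and 95.2%. Gata3-204, also without a coding sequence, held 10.9% and 13.2% of TPM but only 64.6 and 89.8 expected counts, since it is short. Its gene shares 77 exonic bases with 9230102O04Rik on the same strand (10.3 and 14.97 TPM), so reads there could belong to either.

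**Figure D4:**
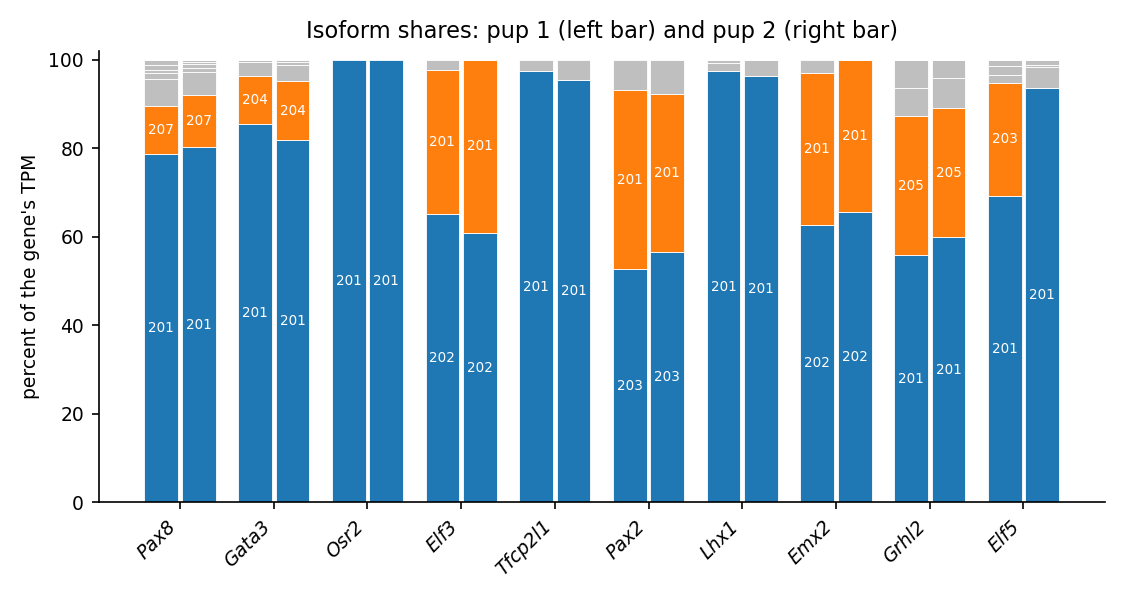
Percent of each gene's TPM (vertical axis) by transcript, with pup 1 as the left bar and pup 2 as the right bar; labelled blocks are transcripts with a mean of 10% or more, by the number in their name, and grey blocks are the rest. The 2 bars of a gene are alike except for Elf5, where 203 holds 25.5% in pup 1 and 0 in pup 2.

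In 4 genes annotated transcripts differ by a coding segment, shown here because it lies in annotated coding sequence. Shares are of the TPM of those transcripts that span the segment. Each sequence below is the transcript strand of GRCm38 with the segment in capitals and 15 bases on either side. The junction without the segment follows each. The capitals mark the segment's bases, not its reading frame. Pax2 has an exon of 69 bases, or 23 codons, at chr19:44796628-44796696, a known alternative exon downstream of the paired box.
Pax2-201: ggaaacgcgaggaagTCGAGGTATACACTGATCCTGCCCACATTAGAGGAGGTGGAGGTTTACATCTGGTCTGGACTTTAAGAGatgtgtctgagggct
Pax2-203: ggaaacgcgaggaagatgtgtctgagggct
Transcripts with this exon held 40.4% of TPM in pup 1 and 35.6% in pup 2, and those without it the majority in both. Of expected counts they held 33.8% and 29.5%. These transcripts also differ in their first exons, so the estimate does not rest on the exon alone.

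Elf3 has a segment of 60 bases, or 20 codons, at chr1:135257227-135257286 on the minus strand.
Elf3-201: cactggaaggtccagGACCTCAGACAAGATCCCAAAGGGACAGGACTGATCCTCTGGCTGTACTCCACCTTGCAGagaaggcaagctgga
Elf3-202: cactggaaggtccagagaaggcaagctgga
Transcripts with it held 34.8% and 39.2% of TPM. Elf3-202, without it, had 21.1 and 17.6 TPM, and Elf3-201 had 10.5 and 11.3 TPM. The form without the segment was thus the higher in both pups.

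The Emx2 segment is an exon of 185 bases at chr19:59461662-59461846, which is not a multiple of 3 bases and encodes part of the homeodomain, the DNA-binding fold.
Emx2-201: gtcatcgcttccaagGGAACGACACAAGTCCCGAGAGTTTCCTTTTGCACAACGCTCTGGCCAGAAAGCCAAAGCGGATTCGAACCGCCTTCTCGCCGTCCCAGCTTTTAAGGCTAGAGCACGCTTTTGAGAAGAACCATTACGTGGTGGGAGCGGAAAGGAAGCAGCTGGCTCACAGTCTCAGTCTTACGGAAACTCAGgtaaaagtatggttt
Emx2-202: gtcatcgcttccaaggtaaaagtatggttt
Emx2-202, the shorter transcript (1580 nt against 2916 nt), held 62.7% and 65.5% of the gene's TPM. It also starts further downstream. The exon was present in 35.3% and 34.5% of TPM but in 50.9% and 50.02% of expected counts. The level of Emx2 transcripts with a whole homeodomain, Emx2-201, was 7.16 and 6.69 TPM.

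In Pax8 the segment is 3 bases, the length of 1 codon, in the paired-box region, at chr2:24443138-24443140 on the minus strand. Its capitals mark the added bases and are not to be read as a codon.
Pax8-203: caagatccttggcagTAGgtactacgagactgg
Pax8-201: caagatccttggcaggtactacgagactgg
Transcripts with it held 11.8% and 12.8% of TPM, almost all from the short model Pax8-207 (626 nt), and 2.93% and 3.16% of expected counts. Pax8-203, whose sequence is shown, itself held only 0.18% and 0.16% of the gene's TPM. Transcripts with the segment were in the minority on either measure. The size of their share depended on the measure, with a mean over the pups of 12.3% on TPM and 3.04% on counts.

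A total of 18 annotated genes overlap a factor's gene or start within 5 kb of it, and 7 of them were detected. The highest was Lhx1os, a lincRNA that starts 125 bases from Lhx1 on the other strand (chromosome 11, 84525660 to 84535831). It had 59.1 TPM in pup 1 and 63.0 TPM in pup 2, which was 2.79 and 2.71 times the level of Lhx1, and it ranked 11 among the 202 detected lincRNAs. The 2 genes share no exonic base. As Lhx1os is short (698 exonic bases), its counts were fewer than those of Lhx1, at 780 and 1018. The stretch between their starts is shown because both are read outward from it. It is given on the minus strand, in the direction of Lhx1, from RefSeq's promoter table (GRCm38.p6, chr11:84525515-84525679), with 20 bases of each gene in lower case. The capitals mark the 125 bases between RefSeq's start of Lhx1 (84525534) and the M21 start of Lhx1os (84525660). The M21 start of Lhx1 lies at 84525535, so by M21 the last capital is the first base of Lhx1.
Lhx1 promoter: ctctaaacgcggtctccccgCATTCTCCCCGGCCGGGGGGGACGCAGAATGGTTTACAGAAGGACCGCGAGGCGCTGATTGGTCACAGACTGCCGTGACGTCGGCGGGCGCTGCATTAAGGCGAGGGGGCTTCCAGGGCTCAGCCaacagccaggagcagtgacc

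Other factors also had a non-coding partner at their start. Gm16136, antisense to the start of Grhl2 (chromosome 15, 37231793 to 37233309), had 21.4 and 20.2 TPM, or 3.51 and 3.73 times the level of Grhl2. Its expected counts, 546 and 639, were fewer than the 717 and 800 of Grhl2. Gm16136 shares 169 of its 1294 exonic bases with Grhl2. Emx2os (chromosome 19, 59425104 to 59458635) had 4.83 and 4.54 TPM, 0.231 and 0.234 times Emx2, and shares 264 of its 5023 exonic bases with it. Whether the counting used strand is not stated in the sources at hand, so in the shared bases reads of a gene and its antisense partner may not be told apart. In all, 2 of the 3 head-to-head partners of factors lay above the factor in both pups, as did 31 (3.63%) of 853 such pairs of a detected protein-coding gene and a non-coding gene starting within 1 kb on the other strand. This comparison was chosen after the values were seen.

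**Figure D5:**
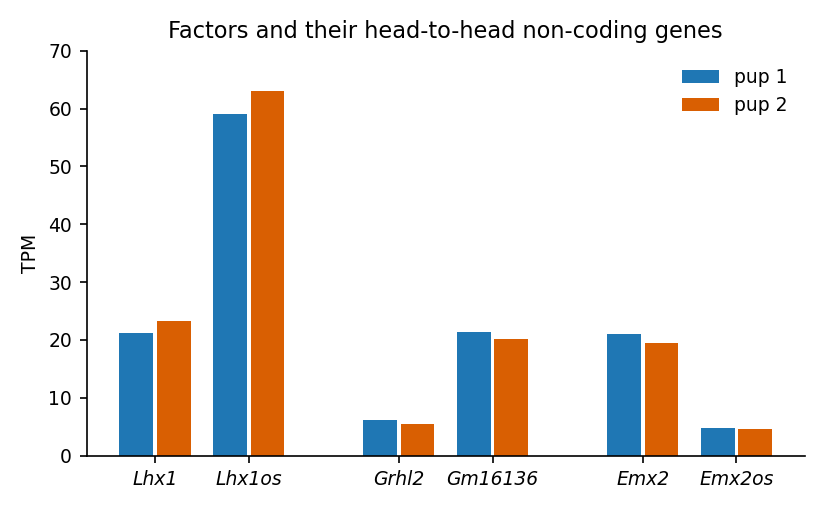
TPM (vertical axis) in pup 1 and pup 2 of 3 factors and the non-coding genes that start beside them on the other strand; each bar is 1 library. Lhx1os and Gm16136 exceed Lhx1 and Grhl2 in both pups, and Emx2os lies below Emx2.

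The other detected neighbours were Aatf beside Lhx1 (37.5 and 33.0 TPM), Gm28221 beside Grhl2 (7.33 and 13.6 TPM), and 9230102O04Rik and 4930412O13Rik (4.17 and 2.64 TPM) at Gata3. The 11 neighbours not detected in both pups were Gm13415, Gm13256, Gm26642, Gm22094, Gm28882, Gm23497, Gm20395, Mir6405, 1700039E22Rik, Gm16137 and Gm16138. None of them exceeded 1.54 TPM in either pup. Gm22094, Gm23497 and Mir6405 have only 117, 130 and 124 exonic bases. These lengths lie below the size limit of the RNA profiled, so whether these genes are expressed could not be judged.

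RefSeq's promoter table held 11 windows for 8 of the 10 factors, each from 250 bases before to 50 after a start; Grhl2 and Osr2 had no entry. The ratio of CpG dinucleotides to the number that base composition predicts was above 0.6 in 6 of the 11, against 35.8% of all 32851 windows. It was highest at Lhx1 (0.961), followed by Emx2 (0.838), 2 of the 3 Pax2 windows (0.812 and 0.789), Gata3 (0.658) and Tfcp2l1 (0.656). Below 0.6 were Elf3 (0.460), both Elf5 windows (0.442 and 0.110), the other Pax2 window (0.410) and Pax8 (0.288). Pax8 thus combined the highest level of the set with a CpG ratio below the median of all windows, 0.384. The letters TATAAA on either strand were in 1 of the 11, that of Tfcp2l1, and in 13.6% of all windows.

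Genes that work with these factors were also present. All 13 cofactors were detected. Ssbp4 led them at 105 ± 1.48 TPM, followed by Ldb1, which bridges LIM homeodomain factors, at 66.5 ± 0.290 TPM. Next were Ldb2 at 62.7 ± 0.403 TPM and Ssbp2 at 62.0 ± 4.08 TPM. The Gata partner Zfpm1 was lowest at 1.5 ± 0.467 TPM (SD, n = 2 for each). The median of the cofactors was 28.1 TPM in pup 1 and 35.0 TPM in pup 2, which in both pups is the value of Lmo2. Their sum was 483 TPM in each pup.

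All 13 genes known to act downstream of or beside the factors in renal epithelium were detected, with medians of 20.2 and 21.2 TPM. Aqp2 was highest at 593 ± 64.6 TPM. The Notch ligand Jag1 had 37.4 ± 0.877 TPM, and Wnt11 of the ureteric tip had 35.0 ± 2.28 TPM. Ret, a receptor gene that Pax2 and Gata3 act on, was lowest at 5.87 ± 0.304 TPM.

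The 8 epithelial genes known as Grhl2 targets were detected too, with medians of 34.3 and 35.2 TPM, well above Grhl2 itself. The adhesion molecule Epcam had 279 ± 6.94 TPM, E-cadherin (Cdh1) 66.3 ± 10.2 TPM, and the claudins Cldn3 and Cldn4 58.9 ± 1.05 and 46.7 ± 0.912 TPM. Ovol2 was lowest at 1.24 ± 0.297 TPM. In these 3 lists 0 genes differed 2-fold between the pups, where 0.607% of all genes tested did. The median log2 ratio was 0.10 over the cofactors, 0.13 over the downstream genes and 0.05 over the Grhl2 targets, beside 0.01 over all genes tested.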

How the data were processed

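Per the file headers, the authors deposited for each library gene and transcript tables with expected counts (estimated reads, not normalized), TPM, bounds of the TPM estimate, and each transcript's percent of its gene's TPM. The text deposited with each library names mm10 and GENCODE M4. The aligner, quantifier and strand were not given in the sources used here. Symbols, coordinates and transcript names came from GENCODE M21 (GRCm38), matched by identifier. Reads that match several genes or isoforms were divided by a model, so short or overlapping transcripts are uncertain.

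The genes and lists were chosen with earlier results of these data known. The text names all 10 factors, detected paralogs, fixed pairs, genes within 5 kb, isoforms of 10% or more, and up to 4 highest and the lowest of other lists; a few genes so named are not reported here. Detection was 1 TPM in both pups. Rounded counts were scaled with TMM (edgeR 4.0.16, R 4.3.3). Counting intervals are exact binomial at 95%, and a count of 0 allows 3 counts, or 0.0721 and 0.0614 CPM. Alternatives were posterior mean estimates, other scalings (DESeq2 1.42.0 size factors), filters, constants and limits, and 1 pup alone. Of the steps, only the scaling and the 2-fold call between the pups were tested on simulated counts, with Python 3.11.15.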

Additional observations from a re-analysis of the deposited data

How the results depend on the processing

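The median of the 10 factors, 26.6 TPM over both pups, was 33.6 TPM when TPM was rescaled to protein-coding genes outside the mitochondrial genome, and ranged from 26.02 to 27.2 TPM with 1 pup left out. The number of genes past 2-fold between the pups, 92, was 38 with a constant of 1 CPM, 401 with a filter of 10 expected counts and 638 with a filter of 1, and no factor passed in any of these settings. At a limit of 80% in place of 50%, 4 of the 10 factors had 1 dominant transcript. They include Osr2, which has only 1 annotated transcript and so passes any limit. The share of all genes at 80% is not given here. The share of Pax8 transcripts with the extra 3 bases was 3.04% on counts. Of head-to-head partners, 2.01% lay above when the coding gene had at least 5 TPM. Both settings were chosen after seeing the data. Depth limits Elf5 most, with 264 expected counts in pup 1. No paired analysis was possible because there was only 1 group.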
